A study of Mus musculus with 18 samples.

Results

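The transcripts of 10 genes of late neutrophil maturation were followed through RNA of sorted mouse haematopoietic stem cells (HSCs) that did or did not lack Mettl3, the catalytic subunit of the enzyme that writes N6-methyladenosine (m6A) on messenger RNA. The genes are S100a8, S100a9, Ltf, Camp, Ngp, Lcn2, Mmp8, Retnlg, Wfdc21 and Lrg1. They were found by name in the authors' tables, 10 of 23038 genes in all, with Wfdc21 under its older name 1100001G20Rik. They were chosen by their RPKM values in these same columns, which were known to differ between the genotypes, so everything given on them is a description and none of it is a test. The data hold 18 libraries in 6 groups of 3 biological replicates, as the series' design text has it. The Mettl3-deficient mice were Mx1-cre; Mettl3fl/fl, in which the cre recombinase is driven by an interferon-inducible promoter, and the wild-type mice were the comparison. Adult C57BL/6 mice of both genotypes had 5 injections of 10 µg pIpC, a double-stranded RNA that induces interferon, and were taken 10 days after the last, so the wild-type cells had seen the same treatment. Whether the wild-type mice carried Mx1-cre or a floxed allele is not given in the labels. HSCs were sorted from bone marrow as Lineage- Sca1+ cKit+ CD150+ CD48- cells, 3000 for each sample. Their polyadenylated RNA was passed over an m6A antibody, and 3 fractions were sequenced from each genotype: the m6A-tagged RNA released from the antibody, the unbound RNA in the washes, and the input. The study asked which HSC transcripts carry m6A that depends on Mettl3.

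Neutrophils fill their granules in an order that follows their maturation in the marrow. Azurophil granule proteins such as myeloperoxidase are made in promyelocytes, specific granule proteins such as lactoferrin in the myelocytes and metamyelocytes that come next, and gelatinase granule proteins later still, while S100a8 and S100a9 are abundant cytosolic proteins of the maturing and mature cell. C/EBP transcription factors, above all C/EBP epsilon, and the ETS factor PU.1 act on many of these genes. HSCs stand several divisions before any of these stages, and the granule genes are known mainly from the later cells.

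Promoter sequences are shown for S100a8 and S100a9 on chromosome 3 and for Ltf, Camp and Ngp on chromosome 9, since the genes of each set share a chromosomal region. Each is the 150 bases before the gene's start, from RefSeq on GRCm38.p6, written 5′ to 3′ on the strand of the gene, and capitals mark the letters TTNNGNAA, a C/EBP-type motif searched on both strands.
S100a8 promoter, chr3:90668921-90669070, plus strand: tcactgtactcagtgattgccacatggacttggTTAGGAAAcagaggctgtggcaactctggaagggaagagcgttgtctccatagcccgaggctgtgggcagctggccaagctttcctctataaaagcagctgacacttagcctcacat
S100a9 promoter, chr3:90695722-90695871, minus strand: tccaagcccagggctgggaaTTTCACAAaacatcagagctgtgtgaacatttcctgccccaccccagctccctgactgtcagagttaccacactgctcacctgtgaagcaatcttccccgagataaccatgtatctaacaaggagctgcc
Ltf promoter, chr9:111019142-111019291, plus strand: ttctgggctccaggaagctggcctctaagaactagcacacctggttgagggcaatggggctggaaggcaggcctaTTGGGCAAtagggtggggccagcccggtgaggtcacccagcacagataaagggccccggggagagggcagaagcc
Camp promoter, chr9:109849457-109849606, minus strand: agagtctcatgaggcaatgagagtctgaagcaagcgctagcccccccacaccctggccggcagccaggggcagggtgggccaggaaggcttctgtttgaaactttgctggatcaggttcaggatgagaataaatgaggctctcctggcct
Ngp promoter, chr9:110419658-110419807, plus strand: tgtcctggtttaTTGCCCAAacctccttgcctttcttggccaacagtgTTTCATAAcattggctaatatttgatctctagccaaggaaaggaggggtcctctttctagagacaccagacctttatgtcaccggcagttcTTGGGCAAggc
The S100a8 match begins 117 bases before the start and the nearest Ltf match 75 bases before it, while Ngp holds 3 matches, at 138, 102 and 11 bases, and Camp holds none. Of the 10 genes, 9 had an entry in the promoter table and Wfdc21 had none. In the 250 bases before the start, 7 of the 9 held at least 1 TTNNGNAA, against 36.9% of all 27025 promoters of the same length. The letters GAGGAA, an ETS-type motif searched on both strands, were in 4 of 9, against 23.1% of all promoters. A TATA box, TATAAA on the strand of the gene, was in 1 of 9, S100a8, where it lies 30 bases before the start, against 8.12% of all promoters. These matches describe letters, not bound sites.

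Some features of the libraries touch every value that follows. The deposited unit is RPKM, a read number scaled by gene length and by library depth, and each of the 6 groups is 1 column that averages its 3 libraries. No spread between replicates of both genotypes, and so no p-value, can be given. Libraries could be left out in turn for Mmp8, Retnlg and Lrg1 in Mettl3-deficient cells alone. No difference of the 10 genes below has a replicate check on the wild-type side. Effective library depths follow from the steps between low values. They were 25.89 to 33.59 M reads (M for mega) in m6A-tagged, 12.24 to 27.27 M in the washes (unbound) and 9.42 to 30.06 M in input RNA of Mettl3-deficient cells, against 30.32 to 34.99 M, 24.3 to 27.38 M and 28.33 to 37.22 M in the wild-type fractions in the same order. Mettl3 itself stood at 17.4, 11.2 and 19.6 RPKM in Mettl3-deficient m6A-tagged, unbound and input RNA and at 36.1, 33.2 and 36.4 RPKM in the wild-type fractions, and reads from exons that were not deleted are counted in it. Of 14 HSC markers, all 14 were listed and 11 reached a mean of 10 RPKM. The summed level of the 14 was 1309 to 1439 RPKM in Mettl3-deficient and 1168 to 1180 RPKM in wild-type columns. Ly6a alone was at 222, 751 and 348 RPKM in Mettl3-deficient m6A-tagged, unbound and input RNA, against 124, 195 and 118 RPKM in wild-type RNA. Much of the higher sum was thus Ly6a. Over the 11 markers the median log2 ratio of Mettl3-deficient to wild-type RNA was -0.11 in m6A-tagged, 0.21 in unbound and 0.43 in input RNA. Over all genes with such a mean it was -0.01, 0.02 and -0.05.

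For genes with low values the pooled RPKM could be split into reads per library. Among these, 1 wild-type library led for most late neutrophil genes in each fraction. Libraries are numbered by depth within a fraction, 1 being the deepest, and these numbers are not the replicate numbers and do not link fractions. The genes named next were chosen after their values were seen. Fpr2, a formyl peptide receptor of neutrophils, had 18, 0 and 0 reads in the m6A-tagged libraries of Mettl3-deficient cells and none in the unbound or input libraries of that genotype. In wild-type cells Fpr2 had 2, 845 and 0 reads in the m6A-tagged, 251, 0 and 0 in the unbound and 419, 0 and 0 in the input libraries. A single library thus carried nearly all Fpr2 reads of each wild-type fraction. Stfa1, a stefin of mouse neutrophils, had no read in any Mettl3-deficient library, against 0, 84 and 11, then 236, 3 and 0, then 161, 15 and 0 reads in the wild-type m6A-tagged, unbound and input libraries. Stfa2l1, another stefin, had 0, 261 and 0, then 145, 0 and 0, then 100, 0 and 0 reads in the same wild-type libraries.

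The same library led for most late neutrophil genes that could be solved with at least 20 reads. In wild-type RNA it was library 2 for 6 of 6 genes in the m6A-tagged fraction, library 1 for 13 of 14 in the unbound and library 1 for 7 of 8 in the input fraction. These libraries led for 57.1%, 44.7% and 43.6% of all other low genes solved. Those other genes were solved only where a whole column held no read of the gene. Late neutrophil genes were also solved without such a column, by fitting length and reads together. The sets are thus unlike in kind, and the other genes may be more patchily detected, so nothing is read from the shares set side by side. In Mettl3-deficient RNA the leading library was library 1 for 12 of 17 genes in the m6A-tagged, library 3 for 6 of 12 in the unbound and library 1 for 12 of 18 in the input fraction. There the same libraries led for 39.1%, 29.3% and 60.1% of all other low genes solved, so the input count was near that share. At least 90% of the reads came from 1 library for 2 of 17, 5 of 12 and 2 of 18 of the late neutrophil genes in Mettl3-deficient m6A-tagged, unbound and input RNA, against 3 of 6, 10 of 14 and 5 of 8 in wild-type RNA. Among all other low genes solved the shares were 33.6%, 66.4% and 27.2% in Mettl3-deficient and 72.4%, 67.0% and 39.8% in wild-type RNA, so uneven detection is common at low values. Arg2 was more evenly spread in wild-type input, with 402, 250 and 126 reads. Library 3 led for Arg2 in wild-type unbound RNA, with 239, 167 and 248 reads, and for Il1b in wild-type input, with 0, 35 and 84. For wild-type cells none of the 10 granule genes could be solved by library, so no value of theirs can be given without the leading library. The part of that library in the differences below was not tested.

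**Figure D1:**
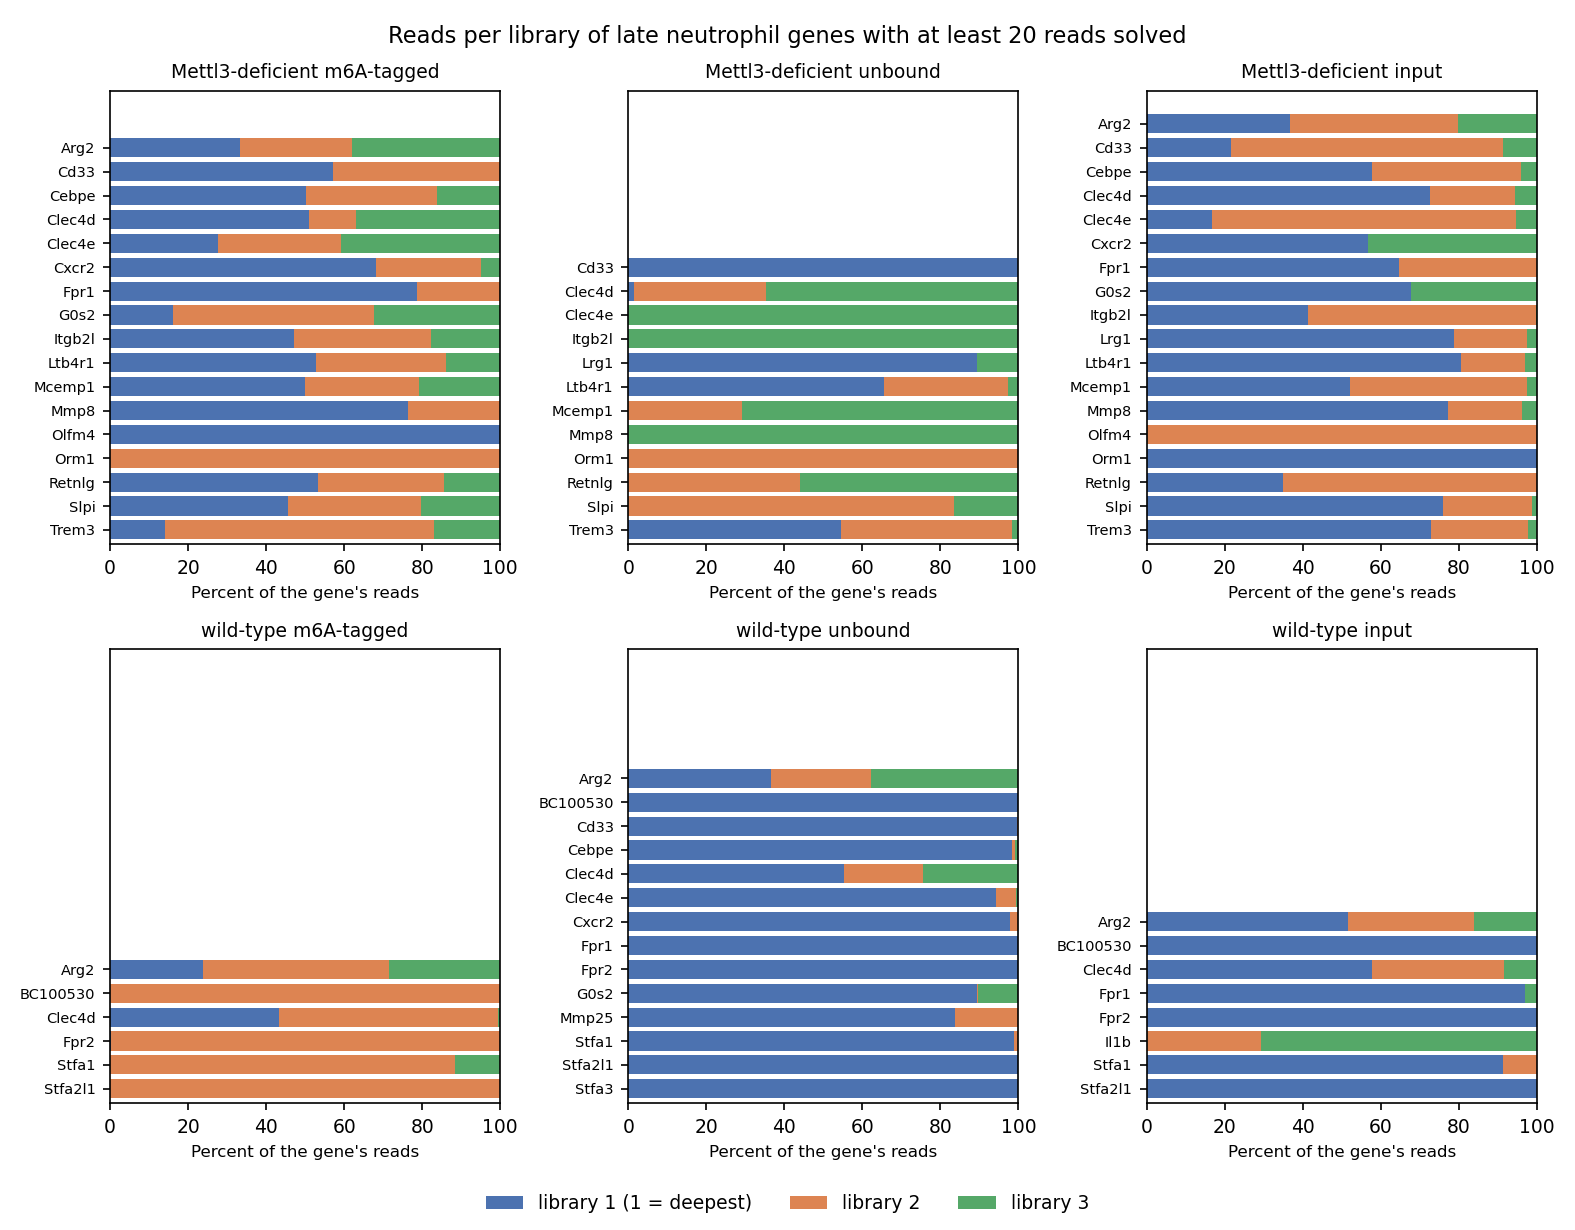
Percent of each gene's solved reads that came from library 1, 2 or 3 of its group (horizontal bars, libraries numbered by depth), for late neutrophil genes with at least 20 reads solved, with Mettl3-deficient groups in the top row and wild-type groups below. In wild-type m6A-tagged RNA library 2 led for 6 of 6 genes, and in wild-type unbound and input RNA library 1 led for 13 of 14 and 7 of 8. The same libraries led for 57.1%, 44.7% and 43.6% of all other low genes solved, a set limited to genes without a read in a whole column.

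All 10 genes stood lower in Mettl3-deficient than in wild-type RNA of every fraction. Summed over the 10, the level was 987 RPKM in m6A-tagged, 1529 RPKM in unbound and 855 RPKM in input RNA of Mettl3-deficient cells, against 7341, 8474 and 6011 RPKM in wild-type cells. The wild-type sums were 7.44, 5.54 and 7.03 times those of Mettl3-deficient cells. As a share of all RPKM in the column, the 10 genes made up 0.212%, 0.230% and 0.180% in Mettl3-deficient and 1.61%, 1.49% and 1.29% in wild-type RNA. In bulk RNA, fewer cells that use these genes and less of their RNA per cell cannot be told apart.

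S100a8 and S100a9 encode the subunits of calprotectin, which binds calcium and withholds zinc and manganese from microbes. S100a8 (gene 20201, chr3:90669071-90670034) was at 246 RPKM in m6A-tagged, 545 RPKM in unbound and 233 RPKM in input RNA of Mettl3-deficient cells, against 1683, 1659 and 1148 RPKM in wild-type cells. S100a9 (gene 20202, chr3:90692630-90695721) was at 201, 343 and 157 RPKM in Mettl3-deficient cells, against 1257, 1419.7 and 945 RPKM in wild-type cells. No Mettl3-deficient value reached any wild-type value for either gene. By level, S100a8 was the 2nd most abundant transcript of the wild-type m6A-tagged column and the 11th of the wild-type input, and it was the 266th and 311th in the same Mettl3-deficient columns. On the scale log2((RPKM + 1)/(RPKM + 1)), on which all folds here are given unless a ratio is named as plain, S100a8 was 6.82-fold lower in Mettl3-deficient m6A-tagged RNA, 3.04-fold lower in unbound RNA and 4.92-fold lower in input. S100a9 was 6.22-fold, 4.13-fold and 5.97-fold lower in the same fractions. The plain ratio of S100a8 to S100a9 was 1.22, 1.59 and 1.48 in Mettl3-deficient and 1.34, 1.17 and 1.22 in wild-type m6A-tagged, unbound and input RNA, so the levels of the subunits stayed within 2-fold of each other in every column.

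The genes of specific granule proteins with antimicrobial roles were abundant in wild-type RNA too. Ltf, lactoferrin, which binds iron (gene 17002, chr9:111019292-111042766), was at 68.5, 9.48 and 58.5 RPKM in Mettl3-deficient m6A-tagged, unbound and input RNA, against 649, 647 and 635 RPKM in the wild-type fractions. Ltf was thus near-constant across the wild-type fractions and lowest in the unbound fraction of Mettl3-deficient cells. Camp, the cathelicidin precursor (gene 12796, chr9:109847377-109849456), was at 183, 291 and 131 RPKM in Mettl3-deficient cells, against 1179.7, 1534 and 981 RPKM in wild-type cells. Ngp, neutrophilic granule protein, a relative of the cathelicidins and cystatins (gene 18054, chr9:110419808-110423012), was at 179.5, 223 and 182 RPKM in Mettl3-deficient cells, against 1079, 1381 and 1029 RPKM in wild-type cells. Both had every Mettl3-deficient value below every wild-type value. Lcn2, lipocalin 2, which takes iron-loaded siderophores from bacteria (gene 16819, chr2:32384637-32387739), was at 90.3, 98.2 and 83.6 RPKM in Mettl3-deficient cells, against 1007, 1195 and 857 RPKM in wild-type cells. In input these 4 genes were 10.7-fold (Ltf), 7.46-fold (Camp), 5.63-fold (Ngp) and 10.1-fold (Lcn2) lower in Mettl3-deficient cells. The plain ratio of Camp to Ngp stayed between 0.718 and 1.31 in Mettl3-deficient and between 0.953 and 1.11 in wild-type columns. The plain ratio of Lcn2 to Ltf was 1.32, 10.4 and 1.43 in Mettl3-deficient m6A-tagged, unbound and input RNA, against 1.55, 1.85 and 1.35 in wild-type RNA, the unbound value being the low Ltf value of that column.

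The remaining genes were less abundant in both genotypes, except that Wfdc21 lay above Ltf in Mettl3-deficient unbound RNA. Mmp8, the neutrophil collagenase (gene 17394, chr9:7558429-7568486), was at 1.13, 0.492 and 1.39 RPKM in Mettl3-deficient m6A-tagged, unbound and input RNA, against 39.7, 62.9 and 59.1 RPKM in wild-type RNA. Retnlg, a secreted resistin-like protein of mouse myeloid cells (gene 245195, chr16:48872608-48874498), was at 5.86, 2.91 and 3.8 RPKM in the Mettl3-deficient fractions, against 238, 235 and 176 RPKM in the wild-type fractions. In Mettl3-deficient input these genes were 25.1-fold (Mmp8) and 36.9-fold (Retnlg) lower. Wfdc21, a small protein with a whey acidic protein domain (gene 66107, chr11:83746940-83752646), was at 4.68, 15.8 and 4.04 RPKM in Mettl3-deficient cells, against 116, 324 and 138 RPKM in wild-type cells, and was 27.5-fold lower in Mettl3-deficient input. Lrg1, a leucine-rich glycoprotein that is secreted and binds TGF-beta receptor components (gene 76905, chr17:56119678-56121946), was at 6.97, 1.01 and 1.18 RPKM in Mettl3-deficient cells, against 93.4, 15.8 and 43.5 RPKM in wild-type cells, and was 20.5-fold lower in Mettl3-deficient input. In m6A-tagged and input RNA these 4 lay further below wild-type than the 6 abundant genes did, although not all 4 with an added 5 RPKM in place of 1 RPKM, when Lrg1 in input was at -2.97 and Ltf at -3.33 on the log2 scale. The plain ratio of Retnlg to S100a8 was 0.0238, 0.00534 and 0.0163 in Mettl3-deficient m6A-tagged, unbound and input RNA, against 0.141, 0.142 and 0.153 in wild-type RNA.

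**Figure D2:**
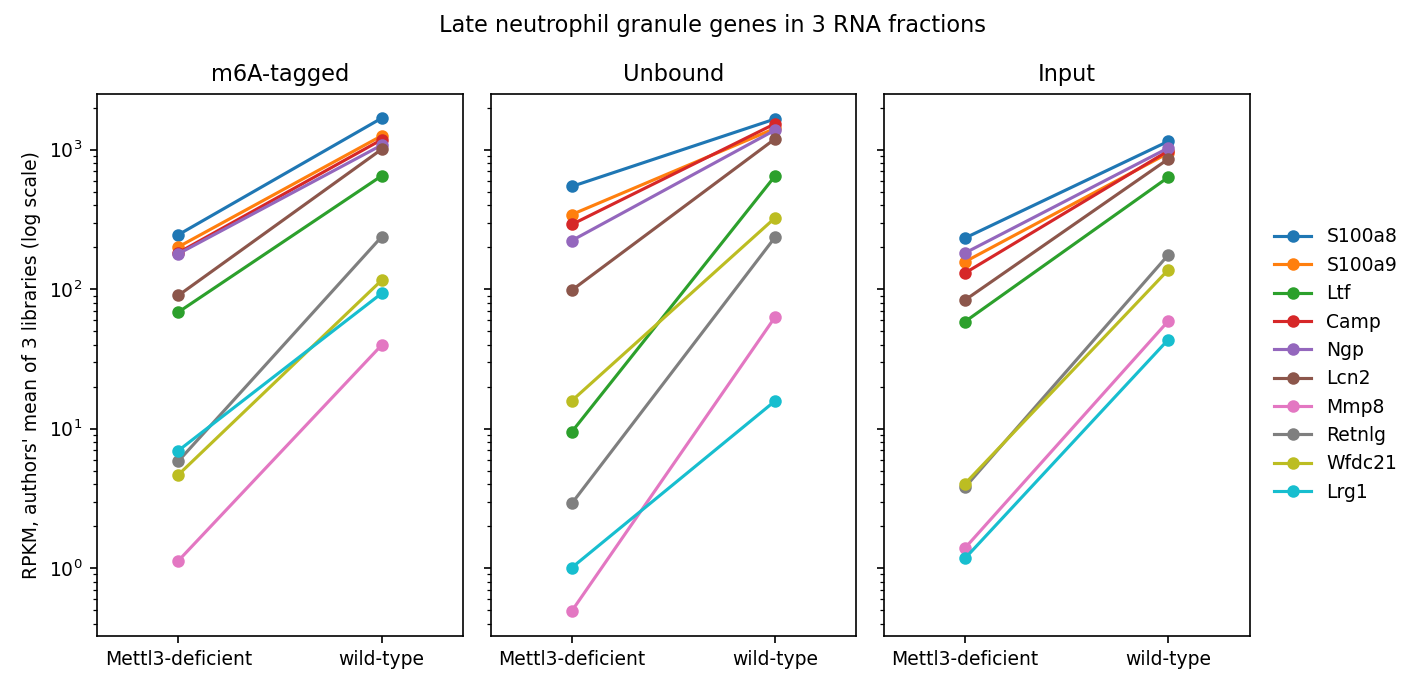
RPKM of the 10 late neutrophil granule genes (log scale, the authors' mean of 3 libraries, no error available) in m6A-tagged, unbound and input RNA, with Mettl3-deficient cells on the left and wild-type cells on the right of each panel and a line for each gene. Every line runs from a lower Mettl3-deficient to a higher wild-type value, from 233 against 1148 RPKM for S100a8 to 1.18 against 43.5 RPKM for Lrg1 in input.

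Reads by library could be solved for 3 of the granule genes in Mettl3-deficient cells. Mmp8 had 206, 64 and 0 reads in the m6A-tagged libraries, 0, 0 and 42 in the unbound and 203, 50 and 10 in the input libraries. Retnlg had 181, 110 and 49 reads in the m6A-tagged, 0, 30 and 38 in the unbound and 59, 110 and 0 in the input libraries. Lrg1 had 84, 0 and 10 reads in the unbound and 97, 23 and 3 in the input libraries, and its m6A-tagged value had no single solution. The reads were thus spread over at least 2 libraries in every solved case but Mmp8 in unbound RNA. With each Mettl3-deficient library left out in turn, the distance to wild-type input ran from 21.1-fold to 35.2-fold lower for Mmp8, from 26.8-fold to 66.0-fold lower for Retnlg and from 17.1-fold to 28.5-fold lower for Lrg1. Retnlg moved furthest without library 2 of the Mettl3-deficient input, to 66.0-fold lower. In m6A-tagged RNA the ranges were 15.1-fold to 28.2-fold lower for Mmp8 and 28.9-fold to 43.8-fold lower for Retnlg.

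Of the 10 genes, 10 lay past 2-fold lower without Mettl3 in each of the 3 fractions. Over all 6295 genes compared, those whose 6 columns averaged 10 RPKM or more, 7.15% were 2-fold lower in m6A-tagged, 22.7% in unbound and 6.67% in input RNA, and 2.38% were 2-fold higher in input. Since the genes were chosen for these values, nothing is read from the count. The median over the 10 was -3.35 (10.2-fold lower) in m6A-tagged, -3.33 (10.0-fold lower) in unbound and -3.38 (10.4-fold lower) in input RNA on the log2 scale, against -0.01, 0.02 and -0.05 over all genes. Among the 6295 genes ordered from the lowest ratio in input, Retnlg was the 3rd, Wfdc21 the 6th, Mmp8 the 8th, Lrg1 the 10th, Ltf the 34th, Lcn2 the 39th, Camp the 55th, S100a9 the 67th, Ngp the 69th and S100a8 the 83rd. In unbound RNA Ltf was 61.8-fold, Retnlg 60.5-fold and Mmp8 42.8-fold lower, an order that depends on the added RPKM: with 0.1 RPKM added Mmp8 was at -6.73, Retnlg at -6.29 and Ltf at -6.08 on the log2 scale.

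**Figure D3:**
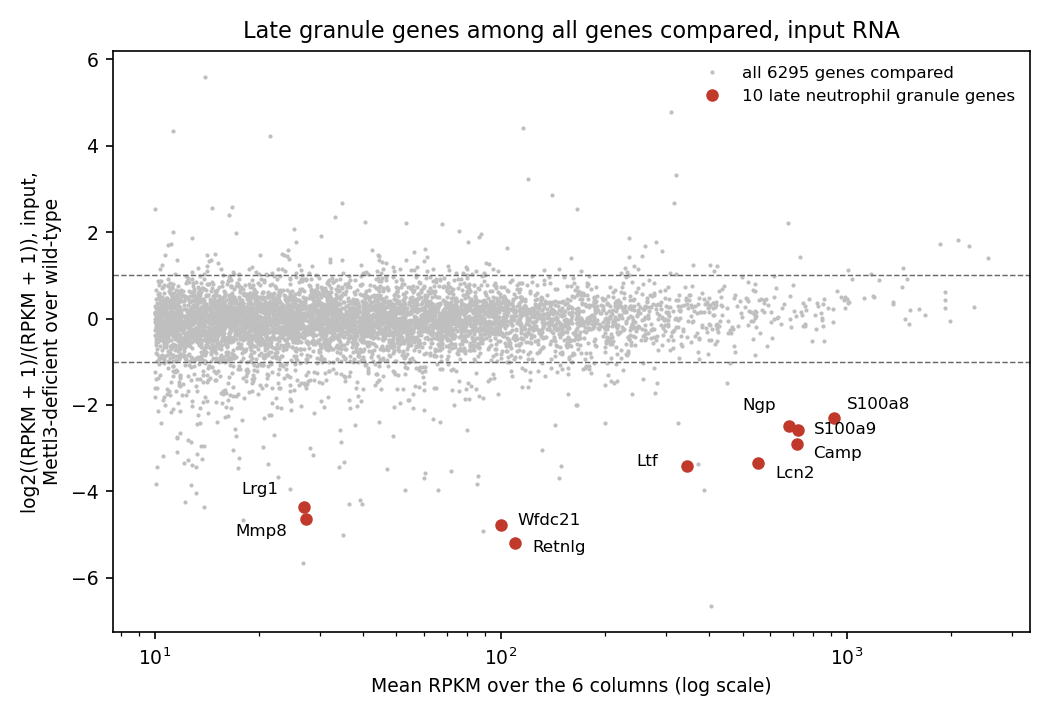
log2((RPKM + 1)/(RPKM + 1)) of Mettl3-deficient over wild-type input against the mean RPKM over the 6 columns (log scale) for 6295 genes (grey points), with the 10 late neutrophil granule genes in red and dashed lines at a 2-fold difference. The red points lie between -2.30 (S100a8) and -5.20 (Retnlg), against a median of -0.05 over all genes.

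The antibody fraction held these transcripts at about the level of the input in both genotypes. The median of log2 m6A-tagged over input was 0.20 in Mettl3-deficient cells, against 0.12 over all genes, and 0.25 in wild-type cells, against 0.06 over all genes. Lrg1 was the exception, at 1.87 in Mettl3-deficient cells (6.97 RPKM in m6A-tagged and 1.18 RPKM in input RNA) and at 1.08 in wild-type cells (93.4 against 43.5 RPKM). It was the 1 gene of 10 past 2-fold higher in each genotype, where 1.37% of all genes were in Mettl3-deficient cells and 3.69% in wild-type cells. With an added 5 RPKM its Mettl3-deficient ratio was 0.95. S100a8 stood at 0.08 in Mettl3-deficient cells and 0.55 in wild-type cells, and Ltf at 0.22 in Mettl3-deficient cells, against 0.03 in wild-type cells. The lowest ratio was that of Mmp8 in both, at -0.17 in Mettl3-deficient cells and -0.56 in wild-type cells. The genotype difference, the Mettl3-deficient minus the wild-type log2 ratio, had a median of 0.14 over the 10 genes and 0.04 over all genes, and ran from -0.47 (S100a8) to 0.79 (Lrg1). None of the 10 differed 2-fold (1 did with an added 0.1 RPKM in place of 1 RPKM), while 7.31% of all genes were 2-fold higher and 2.91% were 2-fold lower by this measure. The lower level in Mettl3-deficient cells thus differed by less than 2-fold between tagged and input RNA for each gene.

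The unbound fraction was more uneven. In Mettl3-deficient cells S100a8 (1.22), S100a9 (1.12), Camp (1.15) and Wfdc21 (1.74) were past 2-fold higher in unbound than in input RNA on the log2 scale, where 18.5% of all genes were. With columns rescaled to their upper quartile, an alternative run after the values were seen, S100a8 was at 0.95, S100a9 at 0.84 and Camp at 0.88, so that 1 of the 10, Wfdc21, stayed past 2-fold higher, where 12.9% of all genes were. Ltf was past 2-fold lower in unbound RNA of these cells, at -2.51 (9.48 RPKM in unbound and 58.5 RPKM in input RNA), where 29.5% of all genes were. In wild-type cells Wfdc21 was past 2-fold higher in unbound RNA, at 1.23, where 4.61% of all genes were, and Lrg1 was past 2-fold lower, at -1.41, where 25.5% of all genes were. With the same rescaling Wfdc21 was at 1.01 in wild-type cells, where 0.699% of all genes were past 2-fold higher. Wfdc21 was thus the gene past 2-fold higher in unbound RNA of both genotypes. Without rescaling Ngp and Lcn2 lay at 0.29 and 0.23 in Mettl3-deficient cells and at 0.42 and 0.48 in wild-type cells.

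**Figure D4:**
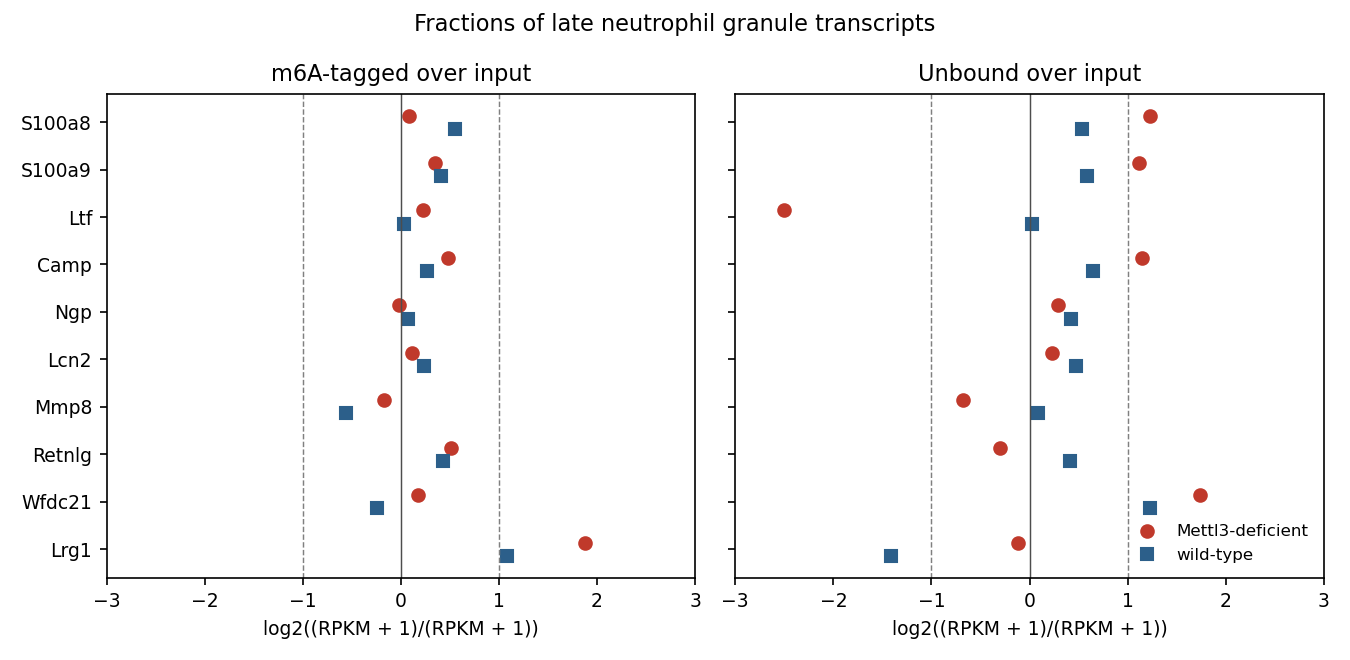
log2((RPKM + 1)/(RPKM + 1)) of m6A-tagged over input RNA (left) and of unbound over input RNA (right) for each of the 10 genes, with Mettl3-deficient cells as red circles above wild-type cells as blue squares and dashed lines at a 2-fold difference. In the left panel Lrg1 alone passes 2-fold, at 1.87 in Mettl3-deficient cells and 1.08 in wild-type cells, and in the right panel Ltf lies at -2.51 in Mettl3-deficient cells.

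Many other genes of the maturing neutrophil stood lower too. Of 43 further late neutrophil genes, 42 were listed and 21 reached a mean of 10 RPKM. Of these 21, 16 were 2-fold lower in Mettl3-deficient input and 0 were 2-fold higher, with a median of -3.44. Some reached that mean only through wild-type columns, such as Olfm4 at 0.617 RPKM in Mettl3-deficient and 21.8 RPKM in wild-type input. The minimum thus favours a count of lower genes, and nothing is read from this count. Chil3, a chitinase-like lectin of the granules, was at 22.8, 18.3 and 23.1 RPKM in Mettl3-deficient m6A-tagged, unbound and input RNA, against 280.1, 299.7 and 254 RPKM in wild-type RNA. Anxa1, the phospholipid-binding annexin A1, was at 123 RPKM in Mettl3-deficient and 406 RPKM in wild-type input, and Lyz2, lysozyme of granulocytes and macrophages, at 373 RPKM in Mettl3-deficient and 667 RPKM in wild-type input. Lyz2, 1.78-fold lower, was among the genes that did not pass 2-fold in input. Padi4, named after its values were seen, was above wild-type in m6A-tagged and input RNA and below it in unbound RNA. It was at 117, 34.6 and 102 RPKM in Mettl3-deficient m6A-tagged, unbound and input RNA, against 58.4, 95.6 and 80.6 RPKM in wild-type RNA. The summed level of the 42 genes was 854 to 1078 RPKM in Mettl3-deficient and 2844 to 3480 RPKM in wild-type columns.

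The earlier azurophil granule genes were split. Of 16, 9 were 2-fold lower in Mettl3-deficient input and 0 were 2-fold higher, with a median of -1.13. Elane, neutrophil elastase, was at 41.2, 129.7 and 36.8 RPKM in Mettl3-deficient m6A-tagged, unbound and input RNA, against 421, 1097 and 592 RPKM in wild-type RNA. Prtn3, proteinase 3, was at 404, 1019.7 and 326 RPKM in Mettl3-deficient RNA, against 508, 774 and 503 RPKM in wild-type RNA, so it lay above wild-type in the unbound fraction. Srgn, the granule proteoglycan serglycin, was at 741 RPKM in Mettl3-deficient and 519 RPKM in wild-type input. Of the 6 genes of the NADPH oxidase, which makes superoxide, 4 were 2-fold lower. Its membrane subunit Cyba was at 94.6 RPKM in Mettl3-deficient and 217 RPKM in wild-type input.

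The transcription factors of granulocytes followed no single direction. Of 10, 9 were listed and 3 reached a mean of 10 RPKM, of which 1 was 2-fold lower in Mettl3-deficient input. Cebpe, C/EBP epsilon, had a mean under 10 RPKM and was at 2.91, 0.161 and 1.17 RPKM in Mettl3-deficient m6A-tagged, unbound and input RNA, against 21.6, 5.13 and 13.4 RPKM in wild-type RNA. In wild-type unbound RNA its reads were 510, 3 and 5 by library. Cebpb, C/EBP beta, was at 4.35 RPKM in Mettl3-deficient and 17.0 RPKM in wild-type input. Spi1, which encodes PU.1, was at 166 RPKM in Mettl3-deficient and 132 RPKM in wild-type input. Of the receptors of the secreted proteins, Eng, the endothelial and HSC surface protein endoglin that Lrg1 binds, was at 312 RPKM in Mettl3-deficient and 222 RPKM in wild-type input.

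Some genes of other blood lineages stood lower along with the granule genes. Of 12 eosinophil and basophil markers, 12 were listed, 7 reached a mean of 10 RPKM and 6 of these were 2-fold lower in Mettl3-deficient input. Here too some reached that mean only through wild-type columns, such as Epx at 0.273 RPKM in Mettl3-deficient and 63.0 RPKM in wild-type input. Mcpt8, a basophil protease named after its values were seen, was compared and was not 2-fold lower. It was at 9.17 RPKM in Mettl3-deficient and 11.2 RPKM in wild-type input. The summed level of the 12 markers was 22.1 to 52.8 RPKM in Mettl3-deficient and 890.2 to 1275 RPKM in wild-type columns. Prg2, the eosinophil major basic protein, was at 11.5, 24.3 and 5.52 RPKM in Mettl3-deficient m6A-tagged, unbound and input RNA, against 664, 1067 and 655 RPKM in wild-type RNA, which is 100.6-fold lower in input. Ear10, an eosinophil ribonuclease named after its values were seen, had no read in any Mettl3-deficient library, against 0, 131 and 0, then 25, 0 and 0, then 75, 0 and 0 reads in the wild-type m6A-tagged, unbound and input libraries. Its reads thus came from the same wild-type library as those of Fpr2 in each fraction. Erythroid markers were 2-fold lower for 4 of 7 compared, with Car1, a carbonic anhydrase of red cell precursors, at 21.8 RPKM in Mettl3-deficient and 188 RPKM in wild-type input, although the summed level was 1037 to 1267 RPKM in Mettl3-deficient and 1242 to 1700 RPKM in wild-type columns because Car2 dominates it.

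Of the 5 megakaryocyte markers compared 2 were 2-fold lower, and the sum of all 8 was 593 to 721 RPKM in Mettl3-deficient and 861 to 1598 RPKM in wild-type columns. Pf4, platelet factor 4, was at 79.9 RPKM in Mettl3-deficient and 428 RPKM in wild-type input. Of 14 monocyte and macrophage markers 3 were compared, and their sum over all 14 was 95.1 to 189 RPKM in Mettl3-deficient and 163 to 206 RPKM in wild-type columns. Ly6c2, a surface protein of monocytes, was at 6.15 RPKM in Mettl3-deficient and 90.7 RPKM in wild-type input, while Cd68, a macrophage lysosomal protein, was at 61.7 RPKM in Mettl3-deficient and 20.5 RPKM in wild-type input. Most of the Mettl3-deficient monocyte and macrophage sum was Cd68. The sum of 9 B cell markers was 94.5 to 142 RPKM in Mettl3-deficient and 60.5 to 197 RPKM in wild-type columns. Cd79b dominates the Mettl3-deficient sum, at 90.6 RPKM in Mettl3-deficient and 84.7 RPKM in wild-type input. Each of the others had a mean under 10 RPKM and was lower in Mettl3-deficient input, with Vpreb1 at 1.95 RPKM there and 11.6 RPKM in wild-type input. The sum of 9 T and NK cell markers was 49.2 to 224 RPKM in Mettl3-deficient and 154 to 376 RPKM in wild-type columns, most of it Nkg7, which azurophil granule cells use too. Cd3d was at 1.60, 0.120 and 1.12 RPKM in Mettl3-deficient m6A-tagged, unbound and input RNA, against 18.0, 21.5 and 14.4 RPKM in wild-type RNA. Cd3e and Cd8a, named after their values were seen, had 0 reads in every library of both genotypes.

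Of 7 genes taken as markers that the sort excludes, 6 were in the tables, 1 of them Ptprc, which encodes every CD45 isoform and is used by HSCs as well. The other 5 summed to 4.24 to 13 RPKM in Mettl3-deficient and 53.0 to 65.0 RPKM in wild-type columns. Itgam, the CD11b subunit on which a lineage gate removes myeloid cells, was at 1.46 RPKM in Mettl3-deficient and 14.4 RPKM in wild-type input, and Cd48 was at 5.54 RPKM in Mettl3-deficient and 15.6 RPKM in wild-type input. Among HSC markers, 2 of 11 were 2-fold higher in Mettl3-deficient input and 0 were 2-fold lower, with Ly6a, which encodes Sca1 and responds to interferon, at 348 RPKM in Mettl3-deficient and 118 RPKM in wild-type input. How much of the difference in the granule genes goes with these other cell types, or with the wild-type library that led for low late neutrophil genes, was not tested.

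**Figure D5:**
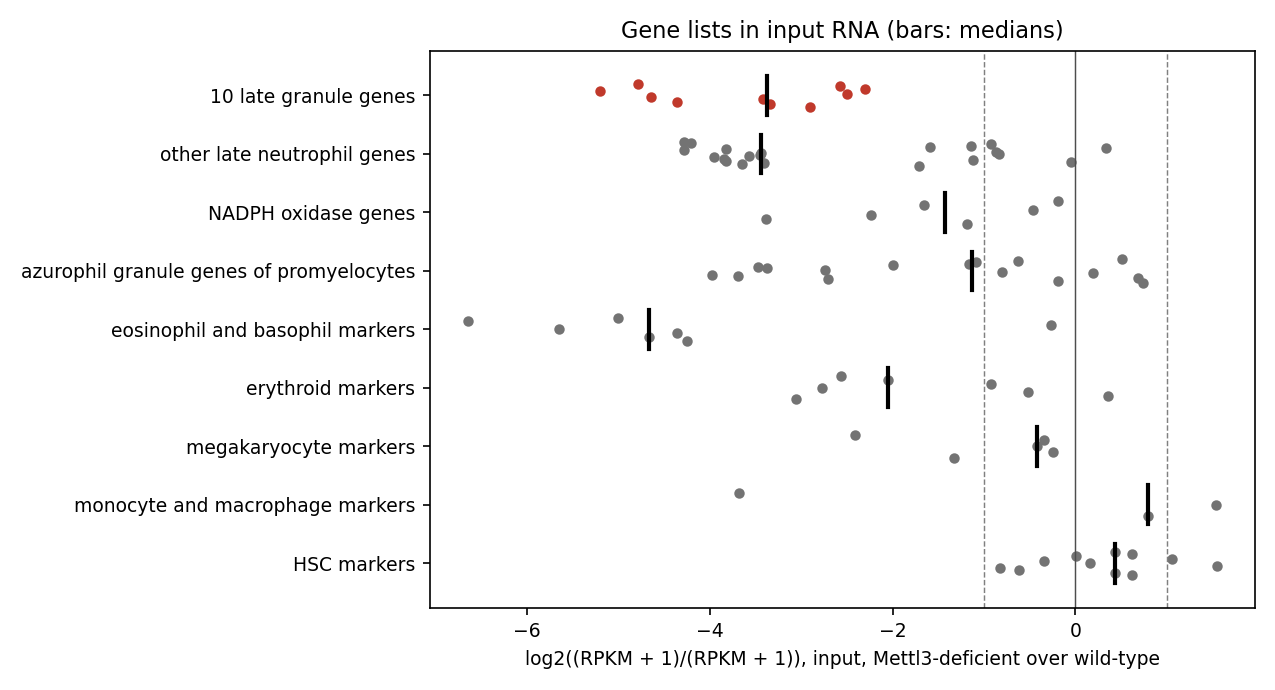
log2((RPKM + 1)/(RPKM + 1)) of Mettl3-deficient over wild-type input for each gene compared (points) in 9 gene lists, with black bars at the medians and dashed lines at a 2-fold difference. The 10 late granule genes (red) have a median of -3.38, beside -3.44 for other late neutrophil genes, -4.66 for eosinophil and basophil markers and 0.43 for HSC markers.

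The genes with the nearest profile were largely of the same kind. Likeness was measured as the Euclidean distance between log2(RPKM + 1) values, centred on each gene, and the mean of the 10 genes over the 6 columns. The nearest of the other genes were Ifitm6 (0.299), Fcnb (0.389), Chi3l3, an older symbol of Chil3 (0.400), AB124611 (0.435), Olfm4 (0.613), Sept5 (0.754), Mpo (0.771) and Slpi (0.804). Fcnb encodes a ficolin of granulocytes and monocytes, Olfm4 an olfactomedin of specific granules and Slpi an inhibitor of serine proteases such as elastase. The 10 genes themselves lay at 0.295 (Lcn2) to 2.31 (Lrg1) from their own mean, so several other genes were nearer to it than most of the 10. Ifitm6 was at 8.21, 9.79 and 6.87 RPKM in Mettl3-deficient m6A-tagged, unbound and input RNA, against 122.8, 122.8 and 92.4 RPKM in wild-type RNA. Mpo, the myeloperoxidase of azurophil granules, was at 76.0, 64.8 and 62.1 RPKM in Mettl3-deficient RNA, against 471, 906 and 653 RPKM in wild-type RNA.

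The neighbours of the S100 pair and of Camp, Ngp and Ltf were also looked at. S100a8 and S100a9 lie 22.6 kb apart on chromosome 3, and Camp, Ngp and Ltf follow each other on chromosome 9 with gaps of 570.4 and 596 kb (RefSeq, GRCm38.p6). Within 500 kb of the chromosome 3 pair, 13 other genes reached a mean of 10 RPKM, of which 0 were 2-fold lower and 1 was 2-fold higher in Mettl3-deficient input, with a median of -0.12. Around the 3 genes on chromosome 9, 9 other genes were compared, of which 0 were 2-fold lower and 1 was 2-fold higher, with a median of 0.01. Over all genes 6.67% were 2-fold lower and 2.38% 2-fold higher in input, so with windows of this size these counts are near the background. The 2-fold higher genes, named after their values were seen, were Rps27 (1.31) beside the S100 pair and Nradd (1.58) on chromosome 9.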

How the data were processed

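RNA of sorted mouse HSCs was measured in 18 libraries. Per the file headers, the deposited values are RPKM, in a table for each genotype that has 1 column per fraction. Per the submitters' processing notes the build was mm10, and Picard and edgeR took part, with neither role nor version stated. Aligner, counting tool and annotation: not given in the sources used here. From the values, a column averages 3 libraries after 1 read was added per gene and library. Of 23038 genes, 6986 had no read, and their values gave whole gene lengths. Depths of the 3 libraries, and reads of low genes where exactly 1 solution existed, were solved from these steps, after a check on simulated data.

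The tables were joined on gene number, and 11 trailing rows without values were left out. log2((RPKM + 1)/(RPKM + 1)) understates differences of low genes. Genes whose 6 columns averaged 10 RPKM or more were compared, and 2-fold counted as different. A gene low in 1 genotype passes this minimum only if it is high in the other, which favours counts past 2-fold. The members and gene lists were chosen with earlier results of these data known. Named genes are the 10 members, up to 4 genes of highest mean RPKM per list, Mettl3 and the 8 nearest profiles, with exceptions stated. Added RPKM, minimum, scaling and left-out libraries were varied. Python 3.11.15, numpy 2.4.6 and pandas 2.3.3 were used.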

Additional observations from a re-analysis of the deposited data

How the results depend on the processing

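Counts of the 10 genes past 2-fold between genotypes stayed at all genes compared in the 3 fractions under an added 0.1 or 5 RPKM and both rescalings. The minimum does not enter the value of a gene, so these counts could not move without a minimum. A minimum mean of 50 RPKM only drops genes, and left 8 of 8. Medians over the genes kept ran from -3.39 to -2.95 in m6A-tagged, -3.72 to -3.07 in unbound and -3.40 to -3.12 in input RNA (log2). Of the other counts, with an added 0.1 RPKM, 1 gene in place of 0 passed 2-fold in the genotype difference of m6A-tagged over input RNA. In m6A-tagged over input RNA of Mettl3-deficient cells 0 genes in place of 1 passed with an added 5 RPKM or a minimum of 50 RPKM, and in wild-type cells 0 in place of 1 passed with a minimum of 50 RPKM. In unbound over input RNA, an alternative set added after the values were seen, the Mettl3-deficient count of higher genes was 1 in place of 4 with upper-quartile scaling and that of lower genes 2 in place of 1 with an added 0.1 RPKM, and the wild-type count of lower genes was 0 in place of 1 with a minimum of 50 RPKM. Lrg1, the gene past 2-fold in m6A-tagged RNA, has a mean under 50 RPKM, and with an added 5 RPKM its Mettl3-deficient ratio was 0.95 and its genotype difference -0.07. Of the other values, 468 moved by less than 1.5-fold and 20 by more, these 20 all of Mmp8, Retnlg, Wfdc21 or Lrg1. The 468 include the values under a changed minimum, which could not move. Rescaling to the upper quartile moved the median of all genes in unbound over input RNA to -0.39 without Mettl3 and -0.27 in wild-type cells. No paired analysis was possible because the columns carry no replicate number. Leaving out a library could be done for Mmp8, Retnlg and Lrg1 in Mettl3-deficient cells alone. Pooling limits all values: the spread between animals is unknown, and so is the level of the 10 genes in each wild-type library.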
